A study of Mus musculus with 6 samples.

Results

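AP-1 immediate-early genes were followed as 9 genes named by symbol (Fos, Fosb, Fosl2, Jun, Junb, Jund, Atf3, Batf and Maff), out of 32285 genes counted in each of 6 single-cell libraries of mouse colon. All 9 were in every matrix. They were listed by symbol and not by a cut on expression, but with earlier results of these data known. Colon pieces of wild-type mice were treated with EDTA at 37 °C to remove epithelium and digested with Liberase TL and DNase I at 37 °C. Cells stained for CD45, the surface protein of blood-derived cells, were then sorted and loaded on a Chromium 5′ kit. Specific pathogen free (SPF) mice were taken untreated (day 0) or after 2 or 7 days of dextran sodium sulfate (DSS), a chemical that injures the colon lining. Pseudo germ-free (pGF) mice had 4 weeks of antibiotics, and were taken then (day 0) or after a further 2 or 7 days of antibiotics together with DSS. Both arms therefore share the DSS schedule and differ in antibiotic exposure, and each of the 6 groups is 1 library with the number of animals in it not given.

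AP-1 is a family of transcription factors that bind DNA as pairs of leucine zipper proteins. FOS proteins need a JUN partner, JUN proteins can also pair with each other, and ATF, BATF and MAF proteins join either side with other site preferences. Several of these genes are immediate-early genes: their transcription starts within minutes of a growth factor, antigen receptor, stress or injury signal through MAP kinases, without new protein synthesis, and their mRNAs decay fast. In gut lymphocytes and macrophages they are known as early marks of activation, and they are also known to be switched on while tissue is dissociated at 37 °C, so the level in a digested tissue can hold both.

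The matrices held 40523 barcodes, of which 29130 cells passed filters and fell into 41 clusters. Kept cells per library ranged from 1262 to 9644 and median UMIs (unique transcript molecules) per kept cell from 2382 to 20493. SPF day 2 stood apart, with 61.1% of barcodes over the 10% limit on mitochondrial UMIs, against 6.41% to 28.1% in the other libraries. SPF day 7 alone held many neutrophils, 2634 cells. At most 1.674% of the smaller library's barcodes were shared by 2 libraries. The 9 genes were left out of the genes used for clustering, together with other immediate-early and stress genes, 59 in all. Class markers were present where the names say: at least 10 of 11 T cell markers in the T or NK class, 15 of 15 in the monocyte or macrophage class, 13 of 14 in the dendritic class, 16 of 16 in the epithelial class and 11 of 11 in plasma and B cells were at or above 10 CPM in every library used. The epithelial cells were carried through a CD45 sort with almost no Ptprc, the CD45 gene, at 0.31 to 60.7 CPM, against 1687 to 2373 CPM of Epcam.

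A level here is CPM, the usual depth-scaled count: the UMIs of a gene over all UMIs, both summed over the cells of a class in a library. Where 3 values follow for an arm, they are days 0, 2 and 7 in that order. Intervals are exact Poisson 95% intervals of the sums and cover counting error only. With 1 library per group there is no replicate check and no p-value: a difference between 2 libraries cannot be told apart from a difference between 2 preparations. Levels are compared between cells for the same gene and not between genes, because 5′ UMI counts are not scaled per length.

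The 9 genes lie on 7 chromosomes (mm10, GENCODE). Fos is at chr12:85473890-85477273 and Batf on the same chromosome at chr12:85686669-85709087. Junb at chr8:84974484-84978718 and Jund at chr8:70698949-70700616 share another. Jun is at chr4:95049034-95052222, Fosb at chr7:19302696-19310051, Fosl2 at chr5:32135801-32157842, Atf3 at chr1:191170296-191218039 and Maff at chr15:79346621-79359076. Promoter windows from RefSeq (GRCm38.p6, the assembly that mm10 names) were found for all 9. Each window, 250 bases before to 50 after a gene start, was searched on both strands for TGANTCA (the AP-1 or TPA response element), for TGACNTCA (the cAMP response element and its relatives) and for the CArG box of serum response factor, known elements of immediate-early promoters. These motifs overlapped nowhere in the members' windows. Jun held TGACATCA with its first base at -45, and Maff held TGACGTCA at -29 from 1 of its starts and TGACATCA at -45 from another. None of the other 7 genes held TGACNTCA, and no member held TGANTCA or the CArG box. These absences hold for exact matches in the windows only: sites further out or with another base were not searched. The Jund window belongs to a start at chr8:70697739 and does not reach the gene start given above (70698949). The Atf3 window (start at chr1:191183333) and the Fosl2 window (start at chr5:32136472) do not reach theirs either (191218039 on the minus strand and 32135801). Of all 32851 windows, 7.81% held TGANTCA, 8.83% TGACNTCA and 1.63% the CArG box. The 250 bases before the start are shown for Jun and Maff, because they hold the matches (capitals), and for Fos, the best-known member. They are chr4:95052223-95052472 (minus strand) for Jun, chr15:79347270-79347519 (plus strand, in an intron of a longer Maff transcript) for Maff and chr12:85473640-85473889 (plus strand, outside the gene) for Fos.
Jun: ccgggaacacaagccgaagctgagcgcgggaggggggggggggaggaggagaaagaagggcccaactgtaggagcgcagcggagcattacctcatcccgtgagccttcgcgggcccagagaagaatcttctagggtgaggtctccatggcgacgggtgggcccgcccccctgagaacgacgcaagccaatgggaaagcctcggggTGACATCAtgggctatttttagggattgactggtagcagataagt
Maff: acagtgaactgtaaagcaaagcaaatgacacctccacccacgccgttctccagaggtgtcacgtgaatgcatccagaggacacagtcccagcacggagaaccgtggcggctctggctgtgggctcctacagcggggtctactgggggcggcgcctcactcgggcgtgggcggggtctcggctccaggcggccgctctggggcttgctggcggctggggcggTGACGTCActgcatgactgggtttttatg
Fos: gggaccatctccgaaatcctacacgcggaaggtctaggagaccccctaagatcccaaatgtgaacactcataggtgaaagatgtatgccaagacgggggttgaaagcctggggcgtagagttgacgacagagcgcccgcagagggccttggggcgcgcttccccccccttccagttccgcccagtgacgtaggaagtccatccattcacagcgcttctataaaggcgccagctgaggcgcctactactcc

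Across cell classes the genes did not share 1 order. Classes are ordered by their median where at least 3 libraries could be read, which leaves out the fibroblast or smooth muscle class, read in SPF day 2 only (410 cells). Its cells held 2993 CPM of Fos, 2347 of Fosb and 2896 of Jun, above every ordered class in any library. Fos, the classic inducible partner of JUN proteins, had its highest median in epithelial cells, with a median of 1590 CPM over 5 libraries (1198 to 1913), and in monocytes or macrophages, with a median of 1406 CPM over 6 (512 to 1892). ILC2, innate lymphocytes of type 2 immunity, followed at 966 CPM, neutrophils at 840, plasma cells at 836 (600 to 1525), dendritic cells at 742 (201 to 1004), T or NK cells at 593 (237 to 843) and B cells at 331 over 3 libraries (229 to 370). Every neighbouring pair in this order overlapped in range. Fosb, a close relative of Fos, was highest among the ordered classes in ILC2, at 1876 to 2107 CPM in 3 libraries, above the range of the others. Fosl2, which codes for the slower and longer-lived FRA2, differed most between classes: 725 CPM in neutrophils (395 to 810), 599 in ILC2 (506 to 697) and 532 in T or NK cells (88.6 to 722), but 236 in macrophages and 116 in epithelial cells. B cells held 15.8 to 63.4 CPM of Fosl2 and plasma cells 1.11 to 5.78, and the ranges of those last classes did not overlap each other or the rest.

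Jun, the main partner of Fos, had its highest median in epithelial cells, 1704 CPM (1322 to 1910), ahead of ILC2 at 971 (630 to 1134) and macrophages at 921 (248 to 1572), whose range overlapped the epithelial one. Junb, which can stand in for Jun or oppose it, followed another order: neutrophils and ILC2 were highest (medians 3709 and 2532), then macrophages at 1942 and T or NK cells at 1871, then epithelial cells at 634 (567 to 700), with plasma cells lowest at 206 (156 to 442). Jund, which many resting cells express, had overlapping ranges between all neighbours, from ILC2 at 2776 to dendritic cells at 1138. Atf3, a stress-induced repressor, was high in epithelial cells (914 to 1868), macrophages (167 to 1538) and dendritic cells (53.9 to 708) and low in T or NK cells (3.76 to 75.5). Batf, needed for several effector T cell programmes, reached 190 CPM in 1 neutrophil library and was at 0, 0, 0, 0.62 and 0.95 CPM in the 5 epithelial libraries. Maff, a small MAF protein with no activation domain, was at 79.7 to 190 CPM in macrophages, 72.8 to 158 in epithelial cells and 7.1 to 16.1 in plasma cells.

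Plasma cell levels are diluted by antigen receptor transcripts, which made up 46.3% to 61.0% of their UMIs. With receptor, mitochondrial and ribosomal genes left out of the total, plasma cells had a median of 2020 CPM of Fos, next to epithelial cells at 2049, and 4343 to 5956 CPM of Jund, above the range of every other class. On that scale plasma cells were still lowest for Fosl2 (2.85 to 16.5) and had the lowest median for Junb (512), so Fos, Fosb, Jun and Jund were present in plasma cells without Fosl2.

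**Figure D1:**
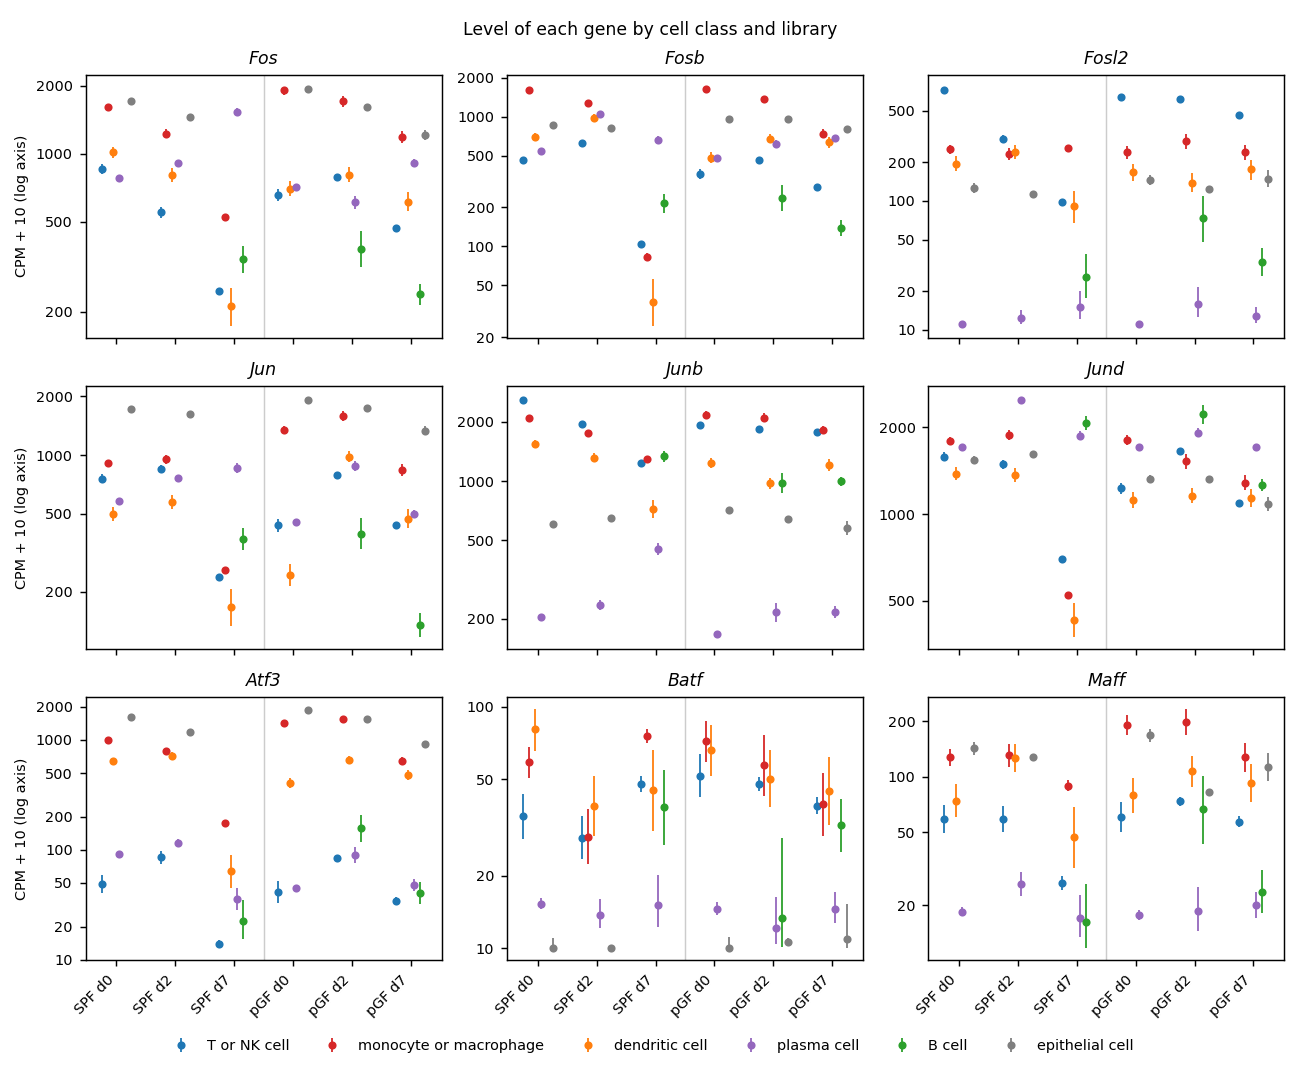
CPM + 10 (log axis) of each of the 9 genes in 6 cell classes, by library, with 95% Poisson intervals of the summed UMIs (bars). Classes under 50 cells in a library are not drawn. SPF day 7 is lowest for most genes in T or NK cells, macrophages and dendritic cells, while plasma cells have their highest Fos (1525 CPM) there.

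In T or NK cells, SPF day 7 had the lowest level of 6 libraries for 8 of the 9 genes, all but Batf. Fos was at 843, 540 and 237 CPM in SPF and 646, 780 and 457 CPM in pGF. Jun was at 746, 839 and 226 CPM in SPF and 426, 779 and 431 in pGF. Both genes were thus lowest in SPF day 7 and between 426 and 843 CPM in the other 5 libraries. Fosb was at 451, 616 and 94.8 CPM in SPF and 353, 455 and 278 in pGF. Fosl2 was at 722, 293 and 88.6 CPM in SPF and 626, 606 and 457 in pGF. Fosl2 was already low in SPF at day 2, at 293 CPM beside 606 in pGF. Junb (2570, 1930 and 1231 CPM in SPF, 1914, 1828 and 1757 in pGF) and Jund (1569, 1478 and 690 in SPF, 1218, 1642 and 1086 in pGF) were low in the same library by smaller factors. Atf3 was at 38.6, 75.5 and 3.76 CPM in SPF and 31.3, 74.8 and 24.5 in pGF, so its SPF day 7 value rests on few molecules. Maff was at 49.2, 49.1 and 16.5 CPM in SPF and 50.6, 63.6 and 47.0 in pGF. Batf went the other way within SPF, from 25.2 and 18.7 CPM to 37.8, and was at 41.9, 38.0 and 28.9 CPM in pGF.

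Genes were counted as apart when CPM + 10 differed at least 2-fold, among genes with at least 10 CPM in either library. From SPF day 0 to day 7, 8 of 9 members were lower and none higher in T or NK cells, where 2.62% of 8448 genes were lower and 3.48% were apart in either direction. Their median log2 ratio was -1.68, beside 0.11 over all genes tested. From SPF day 2 to day 7, 7 of 9 were lower, where 2.54% of genes were lower and 3.67% apart. Day 2 against day 0 in SPF had 1 member apart, Fosl2, where 3.77% of genes were. Within pGF, 1 member was higher at day 2 than at day 0 (Atf3, 1.55% of genes apart), 1 was lower at day 7 than at day 2 (Atf3 again, 0.883%) and 0 differed between days 7 and 0 (1.53%). At this fold the low level thus appeared in 1 arm, and the comparisons within SPF that show it share the day 7 library. Below this fold, all 9 members were also lower in pGF at day 7 than at day 2. Their median log2 ratio there was -0.59 (-1.30 to -0.057), beside -0.0099 over all genes. For pGF day 7 against day 0 the median was -0.26, beside 0.030.

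Between arms, 0 of 9 members were apart in T or NK cells at day 0 (1.11% of genes), 1 at day 2 (Fosl2; 2.63%) and 4 at day 7, all higher in pGF, where 1.25% of 8406 genes were higher and 2.17% apart. The 4 were Fosl2 with a CPM ratio of 5.16 (95% interval 4.82 to 5.53), Fosb with 2.94 (2.74 to 3.15), Atf3 with 6.51 (4.69 to 9.23) and Maff with 2.85 (2.41 to 3.39). Fos at 1.93 (1.84 to 2.02) and Jun at 1.90 (1.81 to 2.00) were just under the fold used, Jund was at 1.57, Junb at 1.43 and Batf at 0.76. With 50 CPM added in place of 10, the day 7 count was 2, because Atf3 and Maff are low genes.

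The largest subset of the T or NK class was intraepithelial-like T cells (1979 of 4453 cells in pGF day 7, 2443 of 3245 in SPF day 7). They were named from markers such as Cd8a, Cd160, Itgae, Gzma and Gzmb, after the T cells that sit between epithelial cells. The name is weak for subclusters 0 and 1, with marker scores of 1.288 and 1.205 and 0 of the subset's markers among their 10 leading genes. Subclusters 2, 3 and 5 had the gamma-delta receptor genes Tcrg-C1, Trdc and Tcrg-C4 among theirs, so the subset may hold gamma-delta T cells. In the whole subset Fosl2 was at 752, 347 and 87.8 CPM in SPF and 683, 635 and 641 in pGF. It was nearly level across pGF and stepped down at each time in SPF. At day 7 the pGF to SPF ratio of Fosl2 was 7.30 (6.74 to 7.91), beside 2.77 for Fosb (2.53 to 3.03) and 1.71 for Fos (1.61 to 1.82). Fos in the same cells was at 799, 537 and 238 CPM in SPF and 552, 820 and 408 in pGF, and Jun at 713, 894 and 224 in SPF and 402, 795 and 455 in pGF. In pGF, Fos and Jun were highest at day 2 and Fosl2 was not.

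**Figure D2:**
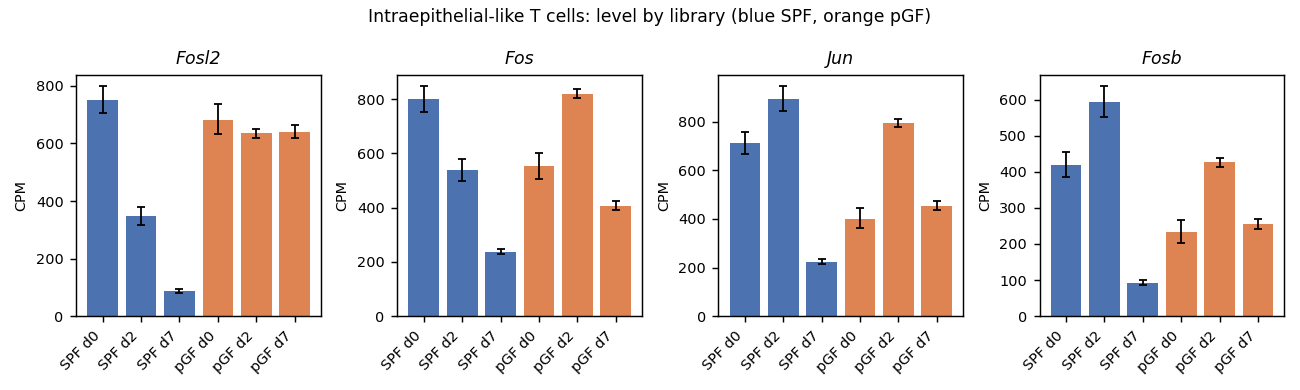
CPM of Fosl2, Fos, Jun and Fosb in intraepithelial-like T cells in each library, with 95% Poisson intervals. Fosl2 is at 635 to 683 CPM in the 3 pGF libraries and steps down in SPF from 752 to 347 and 87.8 CPM.

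Other T cell subsets differed in how far the arms were apart at day 7. In CD8 alpha-beta T cells (219 cells in SPF, 446 in pGF) the Fosl2 ratio was 12.7 (8.22 to 20.7) and the Fos ratio 4.22 (3.47 to 5.18). In gamma-delta T cells (132 and 892 cells) Jun was at a ratio of 1.18 (0.98 to 1.44), Junb at 0.97 (0.89 to 1.05) and Fosl2, at 71.4 and 96.2 CPM, at 1.35 (0.93 to 2.02). Naive-like T cells (122 and 590 cells) had Fos at 208 and 184 CPM, ratio 0.88 (0.68 to 1.17), but Fosl2 at 90.3 and 339 CPM, ratio 3.75 (2.59 to 5.62). The subsets are named from clusters, and no test of the difference between subsets is possible with 1 library each.

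The 2 arms did not fill the same subclusters at day 7. Of 2443 intraepithelial-like cells in SPF day 7, 1328 were in subcluster 2 and 1093 in subcluster 5, while 1091 of the 1979 pGF day 7 cells were in subcluster 0. Subcluster 0 held 2481 cells with 839 CPM of Fosl2 and 234 of Jun, subcluster 1 held 2033 cells with 479 CPM of Fosl2 and 1231 of Jun, and subcluster 5 held 1149 cells with 90.2 CPM of Fosl2 and 299 of Jun. Of these subclusters, Fosl2 was highest in subcluster 0 and Jun in subcluster 1, which also held 479 CPM of Fosl2. These are sums over subclusters and do not show whether single cells hold both genes. Heat-shock genes (Hspa1b, Hspa1a, Dnajb1) led subcluster 1, and Nr4a3 and Fosl2 were among the leading genes of subcluster 0. Some subclusters held cells of both arms at day 7. In subcluster 2, the 9 genes summed to 2153 CPM in SPF day 7 (1328 cells) and 2523 CPM in pGF day 7 (128 cells), with Fosl2 at 87.1 and 94.8 CPM and Fos at 167 and 427. SPF day 2 cells of the same subcluster (86 cells) summed to 4307 CPM. In subcluster 4, the same cells as the gamma-delta subset at day 7, the sums were 3075 and 3326 CPM at day 7. In subcluster 9, CD8 alpha-beta cells, they were 2223 and 3269 CPM, with Fosl2 at 23.5 and 40.4 and Fos at 183 and 634. The members were not among the genes clustered, but genes that move with them were, so these are descriptions and not a test.

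Macrophages showed the low SPF day 7 level in most members, with Fosb furthest. Fosb was at 1609, 1279 and 73.6 CPM in SPF and 1631, 1354 and 730 in pGF. Atf3 was at 986, 789 and 167 CPM in SPF and 1408, 1538 and 633 in pGF. Fos was at 1596, 1215 and 512 in SPF and 1892, 1693 and 1172 in pGF. In all 3 genes pGF day 7 was the second lowest library and SPF day 7 the lowest. Jun (900, 943 and 248 CPM in SPF, 1333, 1572 and 831 in pGF) and Jund (1779, 1865 and 513 in SPF, 1800, 1516 and 1273 in pGF) had the same lowest library. Junb was at 2079, 1743 and 1285 CPM in SPF and 2170, 2092 and 1806 in pGF, and Maff at 118, 121 and 79.7 in SPF and 182, 190 and 118 in pGF. Fosl2 stayed at 223 to 282 CPM in all 6 libraries. Batf was at 48.8, 18.9 and 65.8 CPM in SPF and 62.1, 47.4 and 29.4 in pGF, so it was not low in the library where most members were lowest. Its SPF day 7 and pGF day 0 levels were within counting error of each other. Without receptor, mitochondrial and ribosomal genes in the total they were 75.3 (69.6 to 81.5) and 76.4 (60.2 to 95.6).

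From SPF day 0 to day 7, 5 of 9 members were lower in macrophages, but 10.5% of 7527 genes were lower too and 17.8% apart, so the background was much wider than in T cells. From day 2 to day 7 in SPF, 5 were lower and 1, Batf, higher, where 13.8% of genes were lower and 18.9% apart. At day 7, 5 members were higher in pGF than in SPF (Fos, Fosb, Jun, Jund and Atf3), where 10.6% of 7734 genes were higher and 15.6% apart. The members' median log2 ratio was 1.18, beside 0.33 over all genes. The CPM ratio was 9.91 for Fosb (8.88 to 11.1), 3.79 for Atf3 (3.43 to 4.19), 3.36 for Jun (3.08 to 3.65) and 0.93 for Fosl2 (0.80 to 1.08). Between arms, 0 members were apart at day 0 (1.55% of genes) and 0 at day 2 (4.76%). Within SPF, 1 was apart at day 2 against day 0 (Batf; 3.39%). Within pGF, 0 were apart at day 2 against day 0 (5.43%), 1 at day 7 against day 2 (Atf3; 4.59%) and 2 at day 7 against day 0 (Fosb and Atf3, both lower; 5.13%). The members' median log2 ratio in pGF was -0.54 for day 7 against day 2, beside -0.080 over all genes. For day 7 against day 0 it was -0.67, beside 0.15. The day 7 count between arms was 3 when cells with under 500 genes were left out, with the log2 ratio of Fos at 0.05 in place of 1.18 and that of Jun at 0.76 in place of 1.71. With TMM scaling Fos (0.55) and Jund (0.67) were not apart.

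The macrophage class changed its makeup at SPF day 7: C1q-negative monocytes were 1092 of 1641 cells there and 33 of 295 at SPF day 0. Another 158 of the 1641 formed subcluster 7, with no cells of other libraries. It was left unnamed, and its leading genes include the neutrophil markers S100a8 and S100a9. These cells are part of the SPF day 7 class levels and ratios above. C1q-positive macrophages, a name given from markers, numbered 196, 129 and 341 in SPF and 114, 61 and 106 in pGF. In SPF day 7, 209 of them were in subcluster 3 and 62 in subcluster 10, while in SPF day 0 132 were in subcluster 1. Ratios of day 7 to day 0 in this subset therefore compare unlike subclusters. Many of the SPF day 7 cells were shallow, with 146 of the 341 under 1000 UMIs. In SPF day 0 this held for 1 of 196, in SPF day 2 for 4 of 129 and in pGF day 7 for 24 of 106. The part of this depth in the subset's levels and ratios was not tested. Of the 341 in SPF day 7, 53 were in subcluster 13, whose leading genes include the T cell genes Gzma, Cd7 and Cd8a. Within the subset Fosl2 was at 246, 140 and 72.6 CPM in SPF and 228, 252 and 123 in pGF, so its flat level over the whole class did not hold in this subset: the log2 ratio of SPF day 7 to day 0 was -1.63 in C1q-positive macrophages and 0.03 in the class. C1q-negative monocytes had 414, 250 and 392 CPM of Fosl2 in SPF day 2, SPF day 7 and pGF day 7. Fos was closer between arms in C1q-positive macrophages at day 7, at 934 CPM in SPF and 1242 in pGF (ratio 1.33, 1.19 to 1.48), than Fosb, at 217 and 935 CPM (ratio 4.32, 3.62 to 5.17). Without subcluster 13 (288 SPF day 7 cells left, an alternative chosen after seeing the data), these ratios were 1.27 (1.13 to 1.42) for Fos and 4.22 (3.52 to 5.07) for Fosb, and the Fosl2 log2 ratio to day 0 was -1.60. The log2 ratio of Fos from SPF day 0 to day 7 went from -1.04 to -0.97, just under the fold used. C1q-negative monocytes gave ratios of 2.92 for Fos (2.60 to 3.26) and 9.22 for Fosb (7.50 to 11.3). Subclusters of C1q-positive macrophages ranged widely: subcluster 8, led by Cbr2, Ccl7 and Folr2, summed to 15613 CPM of the 9 genes over 155 cells, of which 1 was from SPF day 7. Subcluster 3, led by Ccl8, Fabp5 and Gpnmb, summed to 1120 CPM over 237 cells, of which 209 were from SPF day 7.

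Dendritic cells followed the macrophages with fewer cells, 64 to 155 per library, and SPF day 7 was lowest for 8 of 9 members. Fosb was at 684, 976 and 27.0 CPM in SPF and 475, 670 and 626 in pGF. Fos was at 1004, 793 and 201 CPM in SPF and 690, 798 and 603 in pGF, and Atf3 at 633, 708 and 53.9 in SPF and 394, 652 and 469 in pGF. In each of these genes the 121 SPF day 7 cells were below every other library. At day 7, 5 of 9 members were higher in pGF, where 8.73% of 7984 genes were higher and 12.8% apart, with a ratio of 23.2 for Fosb (13.4 to 44.0) and 8.70 for Atf3 (5.83 to 13.5). Fos, Jun and Jund were the other members apart. From SPF day 2 to day 7, 7 were lower, where 12.9% of genes were lower and 17.2% apart. At day 2, 0 were apart between arms (6.28%), and in pGF 1 was lower at day 7 than at day 2 (Jun; 3.98%). With no doublets removed the day 7 count between arms was 3, without Fos (log2 ratio 0.76), Jun (0.66) and Jund (0.80) and with Batf, lower in pGF (-1.23).

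**Figure D3:**
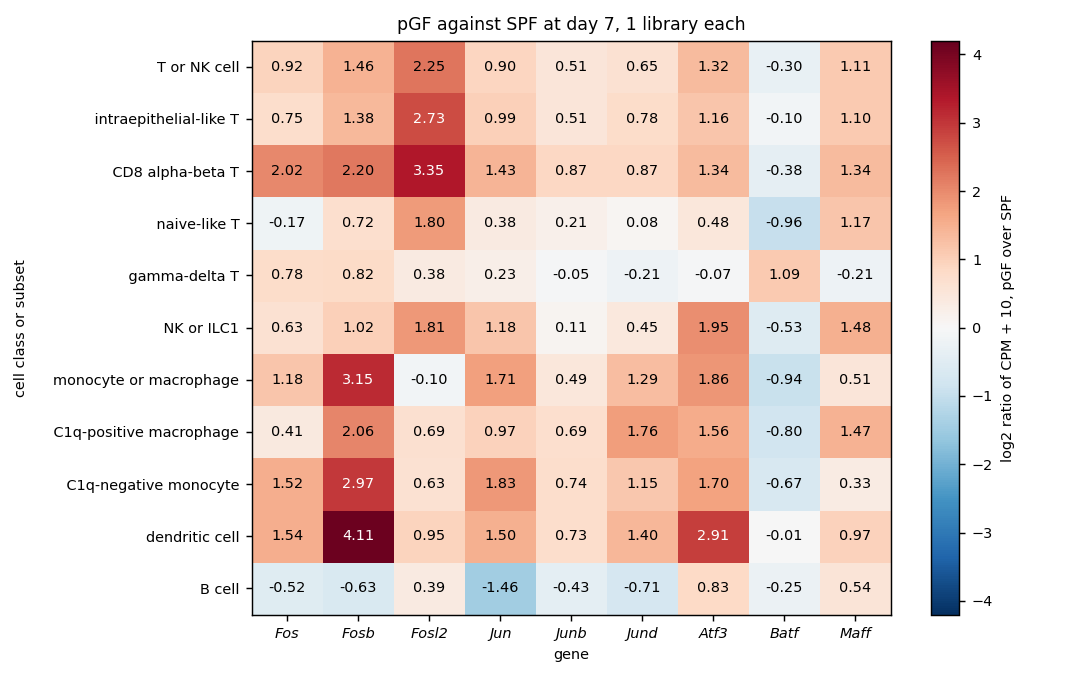
Log2 ratio of CPM + 10, pGF against SPF at day 7, for each gene (columns) in each class and subset with enough cells in both libraries (rows). Fosb in dendritic cells (4.11) and macrophages (3.15) and Fosl2 in CD8 alpha-beta T cells (3.35) are the largest, and Jun in B cells (-1.46) the lowest.

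B cells, plasma cells and epithelial cells are given apart, because SPF day 7 was lowest for fewer members or could not be set against all libraries. B cells were read in SPF day 7, pGF day 2 and pGF day 7 only, in that order below. Fos was at 331, 370 and 229 CPM, Jun at 363, 387 and 125 and Jund at 2053, 2208 and 1251, lowest in pGF day 7, as was Fosb. Fosl2 was at 15.8, 63.4 and 23.7 CPM, Atf3 at 12.6, 147 and 30.2 and Maff at 6.31, 56.7 and 13.7, lowest in SPF day 7. Those SPF day 7 values rest on 10 UMIs of Fosl2, 8 of Atf3 and 4 of Maff. With receptor, mitochondrial and ribosomal genes left out of the total, their intervals overlapped those of pGF day 7. Which of the day 7 libraries was lower is therefore not settled for these genes. Junb (967 CPM) and Batf (3.34 CPM, 1 UMI) were lowest in pGF day 2. At day 7, 1 of 9 members was apart in B cells, Jun, lower in pGF with a ratio of 0.34 (0.28 to 0.42), where 2.69% of 8016 genes were apart. Plasma cells held Fos at 770, 902 and 1525 CPM in SPF and 705, 600 and 902 in pGF, so SPF day 7, with 93 cells, was highest. Fosb was at 533, 1037 and 658 in SPF and 475, 610 and 674 in pGF, and Jun at 574, 751 and 849 in SPF and 444, 873 and 490 in pGF. In plasma cells SPF day 7 was lowest for 2 of 9 genes. Plasma cell comparisons with 100 cells on both sides had 0 members apart: between arms at day 0 (0 of 6 tested; 2.73% of genes), from day 0 to day 2 in SPF (0 of 7; 4.03%) and from day 0 to day 7 in pGF (0 of 7; 3.49%).

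Epithelial cells could not be read in SPF day 7, which held 17 of them. Fos was at 1699 and 1442 CPM in the day 0 and day 2 SPF libraries and 1913, 1590 and 1198 in the pGF libraries. Atf3 was at 1626 and 1181 CPM in SPF and 1868, 1530 and 914 in pGF, and Jun at 1704 and 1612 in SPF and 1910, 1732 and 1322 in pGF. The 3 genes were lowest in the pGF day 7 library, with 79 cells. Of 8 members tested, 0 were apart between arms at day 0 (1.13% of genes) and at day 2 (0.939%), and 0 from day 0 to day 2 in SPF (1.75%). In pGF, 1 of 8 was lower at day 2 than at day 0, Maff, at 158 and 72.8 CPM (1.73%).

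Lists of other genes of the pathway were read in the same comparisons by the same fold. In T or NK cells at day 7, other immediate-early genes were higher in pGF for 6 of 19 tested and lower for 0, with a median log2 ratio of 0.73. Nr4a3, a nuclear receptor induced by antigen receptor signals, was at 512 CPM in pGF and 52.6 in SPF. Feedback genes, the MAP kinase phosphatases and mRNA decay factors that end the response, were higher for 4 of 13 and lower for 0, among them Dusp10 (119 and 25.5 CPM) and Dusp5 (341 and 140). Heat-shock chaperones were higher for 6 of 13 and lower for 0 (median 0.998), with Hspa1b at 512 and 71.9 CPM. Upstream kinases and transcription factors had 0 of 18 apart. Other AP-1 and related genes had 1 of 16 higher, Crem, a cAMP-responsive factor, at 184 and 58.6 CPM. Known AP-1 targets had 0 of 8 higher and 1 lower, Cxcl2, at 11.0 CPM in pGF and 145 in SPF. Cxcl2 was also among the leading genes of T or NK subcluster 12, with the neutrophil markers S100a8 and S100a9. Of the 292 cells of that subcluster, 152 were from SPF day 7. The part of neutrophil RNA in the Cxcl2 value was not tested. In T or NK cells from SPF day 0 to day 7, 11 of 18 immediate-early genes, 9 of 14 chaperones and 6 of 14 feedback genes were lower and none of these lists had a gene higher. Immediate-early and chaperone genes were thus lower in the same library as the members. Over all genes, 1.25% were higher in pGF at day 7 and 2.17% apart. From SPF day 0 to day 7, 2.62% were lower and 3.48% apart. The 0 of 18 upstream genes apart at day 7 is near that background and is no result about the list.

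In macrophages at day 7 the lists were mixed. Other immediate-early genes were higher in pGF for 9 of 20 (Klf4 at 245 and 42.9 CPM, Egr1 at 715 and 186) and lower for 2 (Ier3 at 499 and 2159, and Nfkbia, the NF-kB inhibitor, at 1393 and 3071). Known AP-1 targets were higher for 3 of 12 (Ccl2 at 463 and 126 CPM) and lower for 4, among them Cxcl2 at 3952 and 23019 and Tnf at 259 and 942. Cxcl2 and Tnf were thus higher in SPF day 7, where Fos, Fosb and Jun were lower. Other AP-1 genes were higher for 2 of 19 (Maf, a macrophage identity factor, at 267 and 32.5 CPM, and Batf3) and lower for 2, among them Jdp2, a repressor of AP-1 sites, at 107 and 445. Chaperones were higher for 7 of 14, among them Hspa1b at 725 and 79.6 CPM, and lower for 1, Hspa5. Over all genes in this comparison 10.6% were higher and 15.6% apart, so the shares of other AP-1 genes were near that background. Feedback genes were higher for 4 of 12 and lower for 1, and upstream genes higher for 2 of 18, among them Mef2c, and lower for 1; the upstream share is also near the background. In dendritic cells at day 7, other immediate-early genes were higher in pGF for 8 of 20 and lower for 0, with Egr1 at 373 and 26.9 CPM. Known targets there were higher for 7 of 10, among them Il6 at 81.3 and 16.6 CPM, and lower for 1, Timp1, while 1 of 13 chaperones was higher, Hsph1, where 8.73% of all genes were higher and 12.8% apart.

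Several measures moved with the members in some classes. The 14 chaperones summed to 9105, 7030 and 3927 CPM in SPF and 7690, 10853 and 6306 CPM in pGF T or NK cells, and to 8958, 6884 and 4359 in SPF and 8965, 8508 and 6049 in pGF macrophages, lowest in SPF day 7 in both. Dendritic cells had chaperone sums of 8122, 7274 and 5239 CPM in SPF and 5872, 7403 and 5010 in pGF. There pGF day 7 was lowest, while most members were lowest in SPF day 7. Plasma cells had chaperone sums of 3664, 3088 and 3004 in SPF and 2701, 3188 and 2492 in pGF. The median mitochondrial share of T or NK cells was 2.34%, 2.85% and 1.61% in SPF and 2.53%, 2.21% and 2.5% in pGF, also lowest in SPF day 7. Within bins of equal mitochondrial share the order held: at 0 to 2% the 9 genes summed to 2511 CPM in SPF day 7 and 4387 in pGF day 7, at 2 to 5% to 2888 and 4656, and at 5 to 10% to 2656 and 5036. Neutrophil markers in T or NK cells summed to 780 CPM in SPF day 7, with 5 of 12 markers at or above 10 CPM and none at 0. In the other libraries they summed to 7.3 to 19.9 CPM, with 0 of 12 at 10 CPM and 2 to 9 markers at 0, among them S100a8 and S100a9 in 3 libraries. In macrophages that sum was 5713 CPM in SPF day 7 (11 of 12 markers) and 298.5 to 602 elsewhere (4 to 8 of 12), and in dendritic cells 1045 (5 of 12) and 138 to 380 (1 of 12). Plasma cells of SPF day 7 carried 465 CPM of neutrophil markers, against 1.4 to 10.3 elsewhere, and there SPF day 7 was lowest for 2 of 9 members. B cells of SPF day 7 carried 1344 CPM, against 30.0 and 46.0. The part of chaperone level, neutrophil RNA and the time or handling of digestion in the low SPF day 7 values was not tested, and with 1 library per group preparation and condition cannot be told apart. Over all barcodes, filtered or not, the members summed to 5021, 7952 and 3422 CPM of non-mitochondrial UMIs in SPF and 4844, 7545 and 4792 in pGF, again lowest in SPF day 7.

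**Figure D4:**
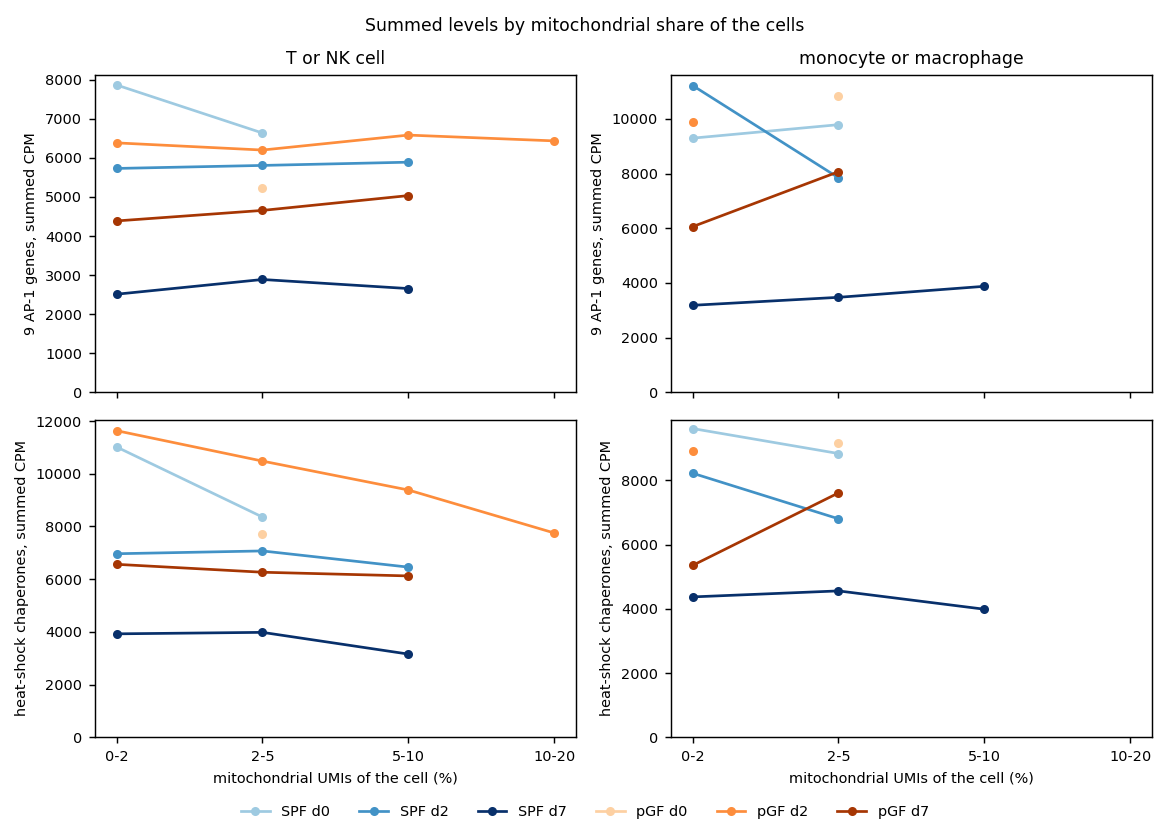
Summed CPM of the 9 genes in cells grouped by their share of mitochondrial UMIs, by library, for T or NK cells and macrophages. SPF day 7 lies lowest in every bin it fills, for T or NK cells at 2511, 2888 and 2656 CPM.

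Shares of cells with at least 1 UMI were compared after each cell was thinned to 1000 UMIs, with exact Clopper-Pearson 95% intervals. Fos was found in 41.1%, 30.4% and 17.4% of T or NK cells in SPF and 31.3%, 41.5% and 28.6% in pGF (70.8%, 53.3% and 37.2%, and 72.8%, 67.0% and 46.2%, before thinning). Fosl2 was found in 41.1%, 22.7% and 7.9% of these cells in SPF and 43.1%, 40.9% and 30.9% in pGF (79.6%, 45.9% and 19.8%, and 82.9%, 66.7% and 48.8%, before thinning). As background, plasma cells of the same libraries had Fosl2 in 0 to 1.4% of thinned cells and 1.9% to 6.8% before thinning. SPF day 7 thus had the smallest share of cells with Fos and with Fosl2 at equal depth, and its Fosl2 share was still above that background. Batf was found in 1.6% to 4.0% of thinned T or NK cells, against 0 to 0.1% of epithelial cells. No class lacks Fos, Jun or Jund, so no such background can be given for them.

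Cells with Fos tended to hold Fosb and Jun too. The share with Fosb was larger in cells with Fos in 34 of 35 pairs of class and library, with intervals that did not overlap in 19, and the share with Jun in 33 of 35, with 18. Epithelial cells of SPF day 0 (Jun), neutrophils of SPF day 7 (Jun) and neutrophils of pGF day 7 (Fosb) were the others, with overlapping intervals. Among T or NK cells of pGF day 2 with Fos (1886 of 4545), 46.1% (43.8 to 48.4) held Jun, against 29.3% (27.5 to 31.0) of those without. In SPF day 7, Jun was found in 24.6% (21.0 to 28.4) of T or NK cells with Fos and 14.4% (13.0 to 15.8) of those without. Macrophages had wide gaps between Fos and Fosb: in SPF day 7, 17.1% (13.4 to 21.4) with Fos held Fosb and 2.8% (1.9 to 4.0) without, and in pGF day 2 66.2% (53.4 to 77.4) and 15.4% (6.9 to 28.1). Plasma cells of SPF day 0 had Fosb in 54.1% (49.6 to 58.6) of cells with Fos and 29.8% (26.4 to 33.3) of the rest. Epithelial cells of SPF day 0 had Jun in 72.3% (61.4 to 81.6) of cells with Fos and 85.2% (66.3 to 95.8) of those without, intervals that overlap. Jun and Fosl2 went the other way in 5 of 6 T or NK libraries, with intervals that did not overlap in 2: Fosl2 was found in 29.8% (21.8 to 38.7) of SPF day 0 cells with Jun and 47.0% (40.4 to 53.6) without, and in 33.6% (31.3 to 35.9) and 45.03% (43.2 to 46.9) in pGF day 2. The intervals overlapped in SPF day 2 (17.8% and 25.9%), pGF day 0 (40.4% and 43.8%) and pGF day 7 (27.9% and 31.8%), and in SPF day 7 the shares were 8.8% and 7.7%.

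**Figure D5:**
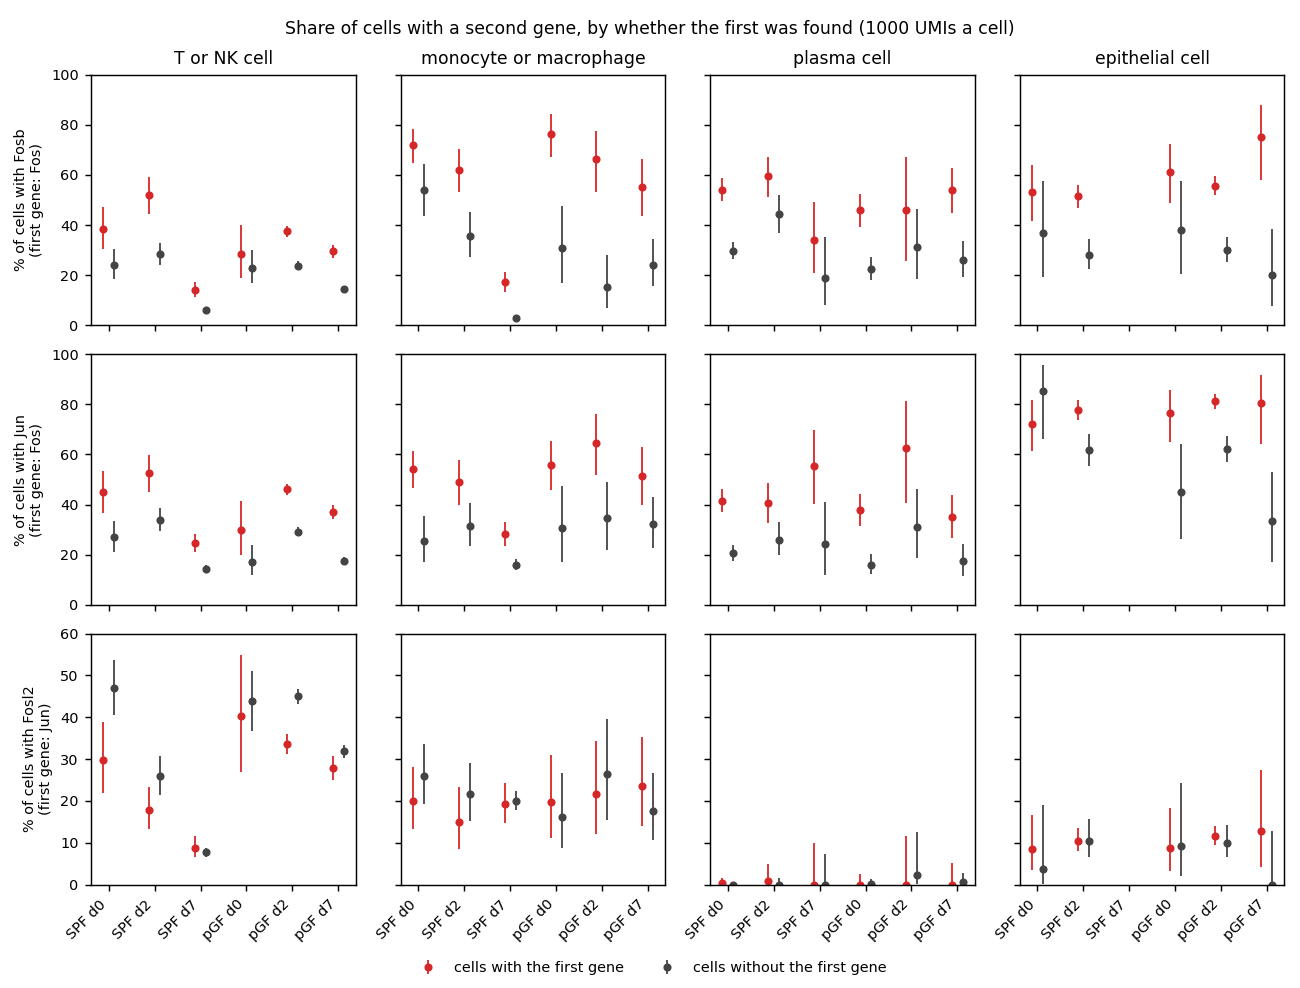
Percent of cells with a second gene among cells with (red) and without (grey) a first gene, thinned to 1000 UMIs, by class and library, with 95% Clopper-Pearson intervals. In the 4 classes drawn, Fos-positive cells hold Fosb and Jun more often, except Jun in epithelial cells of SPF day 0 (72.3% and 85.2%), and Fosl2 is less frequent with Jun in T or NK cells of SPF day 0 and pGF day 2.

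Genes most like each member were ranked over 30 class and library profiles among 5425 genes, by Pearson correlation of log2 CPM + 10. Profiles share libraries and depth, so these are descriptions. Fos was most like Jun (0.91) and Fosb (0.87) among members and Lmna, a nuclear lamina gene, among others (0.90). Fosl2 was most like Junb (0.88) and, of other genes, Coq10b (0.93), and had 0.19 with Fos and 0.18 with Jun. Atf3 went with Maff (0.85) and Klf4 (0.89), and Batf with Tgfb1 (0.93) and, among members, Junb (0.67). Jund had no close partner outside the members, Nek7 being first at 0.71. Of genes outside the list, Ifrd1 was most like the mean of the 9 (0.92).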

How the data were processed

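UMI counts per gene and cell were deposited by the authors as 6 filtered matrices made with Cell Ranger 6.1.2, per the file headers. Seurat 4.1.1, R 4.1.3 and the mm10 build are named in the submitters' processing notes. The matrices are not normalized. Receptor sequencing was not analysed here. Cells needed 200 genes and at most 10% mitochondrial UMIs, and doublets were removed per library at 0.8% per 1000 cells, scored with 2 simulated doublets per cell. Cells were clustered on 2000 variable genes without members and stress genes, 30 components, 20 neighbours and resolution 1 (scikit-learn 1.9.0, leidenalg 0.10.2), with no batch correction. The rule that names clusters from marker lists was revised after clusters were seen; the markers were not. The members and gene lists were chosen with earlier results of these data known.

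Counts were summed per class and library (Python 3.11.15, scipy 1.17.1) and compared as log2 of CPM + 10 in classes with 100 cells in both libraries; for dendritic cells this leaves out day 0 comparisons. Subsets and levels needed 50 cells. A gene was apart at a 2-fold difference, among genes with 10 CPM in either library. There was no test, since each group is 1 library. Ratios have exact conditional 95% intervals. The steps were tested on simulated data. All members were named; from each list, up to 3 genes per direction with the largest ratio, at least 2-fold apart and at 50 CPM in the higher library, could be named. Alternatives covered pseudocounts, scaling, cell filters, doublets, clustering and weighting, and, chosen after seeing the data, leaving out clusters with nearly all cells from 1 library and a macrophage subcluster led by T cell genes.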

Additional observations from a re-analysis of the deposited data

Results flagged for a closer look

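Jun differed in direction between cell classes at day 7. The log2 ratio of CPM + 10, pGF against SPF, was -1.46 in B cells, 1.71 in monocytes or macrophages and 1.5 in dendritic cells. Jun was at 125 CPM in pGF and 363 in SPF B cells, and at 831 and 248 CPM in macrophages. With at least 500 genes per cell in macrophages, and with no doublets removed in dendritic cells, the Jun ratio stayed positive but fell under the 2-fold limit. Each group is 1 library, and the difference between classes was not tested.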

How the results depend on the processing

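Of 427 recomputed counts of members at least 2-fold apart, 381 stayed within 1.5 times the reported count. Of the members' log2 ratios in classes, 3270 kept size and call, 368 moved, 53 lost the call and 0 changed sign while called. Members apart in either direction numbered 6 to 8 from day 0 to day 7 in SPF T or NK cells and 4 to 6 in macrophages. From day 2 to day 7 in SPF dendritic cells they numbered 6 to 7. The low SPF day 7 level did not hold for every member in every setting. With at least 500 genes per cell, macrophage Fos was nearly equal in the arms at day 7. Between arms at day 7, T or NK cells had 2 with 50 CPM added in place of 4, macrophages 3 with at least 500 genes per cell in place of 5, and dendritic cells 3 with no doublets removed in place of 5. B cells had 3 with 1 CPM added or with 2000 UMIs per cell and 2 at a mitochondrial limit of 20%, in place of 1. In T or NK cells, the single member apart between arms at day 2 became 0 with 50 CPM added, with the mean of each cell's CPM and with subsets weighted equally. In pGF T or NK cells, day 2 against day 0 became 0 with 50 CPM added, with 500 genes, with no doublets removed and with members in the clustering; day 7 against day 2 became 0 with 50 CPM added; and day 7 against day 0 became 1 with no doublets removed. In macrophages at day 2 between arms, 0 became 1 with 1 CPM added, with receptor, mitochondrial and ribosomal genes left out, at a 5% limit, with no doublets removed and with members in the clustering, and 2 with the mean of each cell's CPM. Macrophages of SPF at day 2 against day 0 went from 1 to 0 with 50 CPM added and with clustering seed 1. In pGF macrophages, day 7 against day 2 went from 1 to 3 with the mean of each cell's CPM and to 0 with 500 genes, and day 7 against day 0 from 2 to 0 at a 5% limit and with 500 genes and to 1 with no doublets removed. Dendritic cells between arms at day 2 went from 0 to 1 with the mean of each cell's CPM and at a 5% limit. In pGF dendritic cells, day 7 against day 2 went from 1 to 0 with 50 CPM added, TMM scaling, the mean of each cell's CPM, a 20% limit, 500 genes, no doublets removed and seed 1. Plasma cells at day 0 went from 0 to 1 with 1 CPM added, receptor genes left out, 2000 UMIs, a 20% limit and no doublets removed, and in pGF at day 7 against day 0 from 0 to 1 with no doublets removed. Epithelial cells of pGF at day 2 against day 0 went from 1 to 0 with 50 CPM added, receptor genes left out and the mean of each cell's CPM. The cause of these changes was not tested. With barcodes found in more than 1 library left out, 6 levels moved and 228 did not. At 500 UMIs per cell, 190 shares of cells moved and 44 did not, since a share depends on the depth it is read at. A fit with arm and day as additive terms over the 6 libraries was not run.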
